A study of Arabidopsis thaliana with 4 samples.

Results

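The 47 genes described here make, move or break down glucosinolates in Arabidopsis thaliana. They were chosen by locus: a probe belonged to the set when its array annotation, with any transcript suffix removed, named one of the 47 listed loci. All 47 were on the array, out of 29030 loci, and 45 were bright enough to be tested. RNA came from whole plants of 3 kinds, all in the Col-0 background and 21 days old: a line carrying truncated VuDREB2A under the 35S promoter, a line carrying full-length VuDREB2A under the same promoter, and wild type Col-0. VuDREB2A comes from cowpea and belongs to the DREB2 group of transcription factors, which bind the dehydration-responsive element in the promoters of stress genes. Plants grew without treatment on MS agar with 1% sucrose, with 12 h of light a day at 25 °C. As far as the labels state, 1 line stood for each construct, so that an effect of the construct and an effect of the individual line cannot be told apart. The 35S promoter is active in most tissues. The truncated line and the full-length line each shared 2 two-colour Agilent arrays with wild type, with the dyes swapped, which made 4 arrays in all on 1 slide, and the replicates are labelled biological. The design text counts 2 wild type replicates, so both lines may have been set against the same wild type RNA, and their ratios are therefore given side by side and not correlated.

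Glucosinolates are sulfur-rich thioglucosides of the cabbage order. Aliphatic ones are built from methionine, whose side chain is first lengthened in the chloroplast, and indolic ones from tryptophan. In both branches a CYP79 enzyme makes an aldoxime, a CYP83 enzyme activates it, and a shared set of enzymes adds sulfur, glucose and sulfate before the side chain is modified. MYB28, MYB29 and MYB76 are known activators of the aliphatic branch, and MYB34, MYB51 and MYB122 of the indolic branch. When tissue is damaged, myrosinases remove the glucose, and specifier proteins steer the unstable product to isothiocyanates, nitriles or epithionitriles.

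Values are log2 ratios of line over wild type on each array, given in the order replicate 1, replicate 2. Means carry the SD of these 2 arrays (n = 2), and each adjusted p comes from limma with Benjamini-Hochberg adjustment over all 22441 tested features. A gene was called higher or lower where its adjusted p was below 0.05. Of 43603 probes, 65.6% to 72.5% stood well above background in a given channel, and no gene spot was saturated. The level of the transgene could not be read, since no probe carries its name. Markers checked the labelled tissue: all 9 leaf and all 9 root markers were well above background in every channel, as were 5 of 6 guard cell markers. The summed intensity of the 9 root markers was 8744 to 9097 in the truncated line, 7235 to 7579.6 in the full-length line and 9831 to 10337 in wild type. TIP2;3 and CASP1 were the brightest of them and weigh most in these sums. By limma 0 root markers passed in the truncated line and 3 were lower in the full-length line (3 and 6 lower at an unadjusted p below 0.05, 0 higher in either). Their median log2 ratio was -0.04 in the truncated line and -0.25 in the full-length line. For the 6 guard cell markers the sums were 6769.65 to 7236 in the truncated line, 4954 to 5165 in the full-length line and 7107 to 7422 in wild type. The lower sum in the full-length line came mostly from AT1G22690 (adjusted p = 0.00876). The other 5 summed to 1578 to 1603 in the truncated line, 1446 to 1483 in the full-length line and 1458 to 1573 in wild type. KAT1 was higher in the truncated line (adjusted p = 0.0283) and in the full-length line (adjusted p = 0.0477). MYB60 (-0.21) and HT1 (-0.25) had negative means in the full-length line without passing. At an unadjusted p below 0.05 by limma, 3 guard cell markers were lower and 1 higher in the full-length line. In the truncated line 0 were lower and 1 was higher. For the 9 leaf markers the sums were 811420 to 1064820 in the truncated line, 753047 to 1001770 in the full-length line and 869875 to 1093830 in wild type. By limma 0 of 9 leaf markers passed in either line (0 in the truncated line and 3 in the full-length line at an unadjusted p below 0.05). The part of these marker differences in the results on glucosinolate genes was not tested. In whole plants, fewer cells of a type and less RNA per cell cannot be told apart.

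Glucosinolate genes were more often higher than lower in both lines. In the truncated line 11 of the 45 tested genes were higher (24.4%, against 7.09% of all features), 5 were lower (11.1%, against 6.15%) and 29 did not pass. In the full-length line 24 were higher (53.3%, against 9.41% of all features), 2 were lower (4.44%, against 6.14%) and 19 did not pass. The median log2 ratio over the 45 genes was 0.25 and 0.17 on the arrays of the truncated line and 0.33 and 0.29 on those of the full-length line, while the median over all features lay between -0.00081 and 0.018 on every array. Ratios were positive on both arrays for 30 of 45 genes in the truncated line and for 38 of 45 in the full-length line, against 35.3% of all features in the truncated line and 37.4% in the full-length line. The scaling of the arrays matters for these counts. With each array centred on its median in place of loess, ratios were positive for 32 genes in the truncated line (33 with loess) but for 27 in the full-length line (39 with loess), whose 45 ratios moved by a median of -0.22, and limma called 0 members in any comparison (7, 6 and 2 at an unadjusted p below 0.05 in the truncated line, the full-length line and the difference between lines). Without 1 array, the count of higher genes was 5 in the truncated line (without its replicate 1) and 13 in the full-length line (without its replicate 1).

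The calls that passed under every other setting tried, apart from median centring, were 6 of 16 in the truncated line and 8 of 26 in the full-length line. In the truncated line these were the rises of MYB29, AOP2, CYP81F1 and ESP and the falls of FMO GS-OX4 and NSP1. In the full-length line they were the rises of MYB34, BAT5, MAM3, IPMI2, CYP83A1, CYP79B2, CYP83B1 and GTR2. When each array in turn was left out, the calls on these genes stayed, as did the rise of MYB28 in the truncated line and, in the full-length line, the rises of MYB28, SOT18, AOP2 and CYP81F1 and the fall of MYB51. The other 9 calls in the truncated line and 13 in the full-length line did not pass without at least 1 of the arrays.

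**Figure D1:**
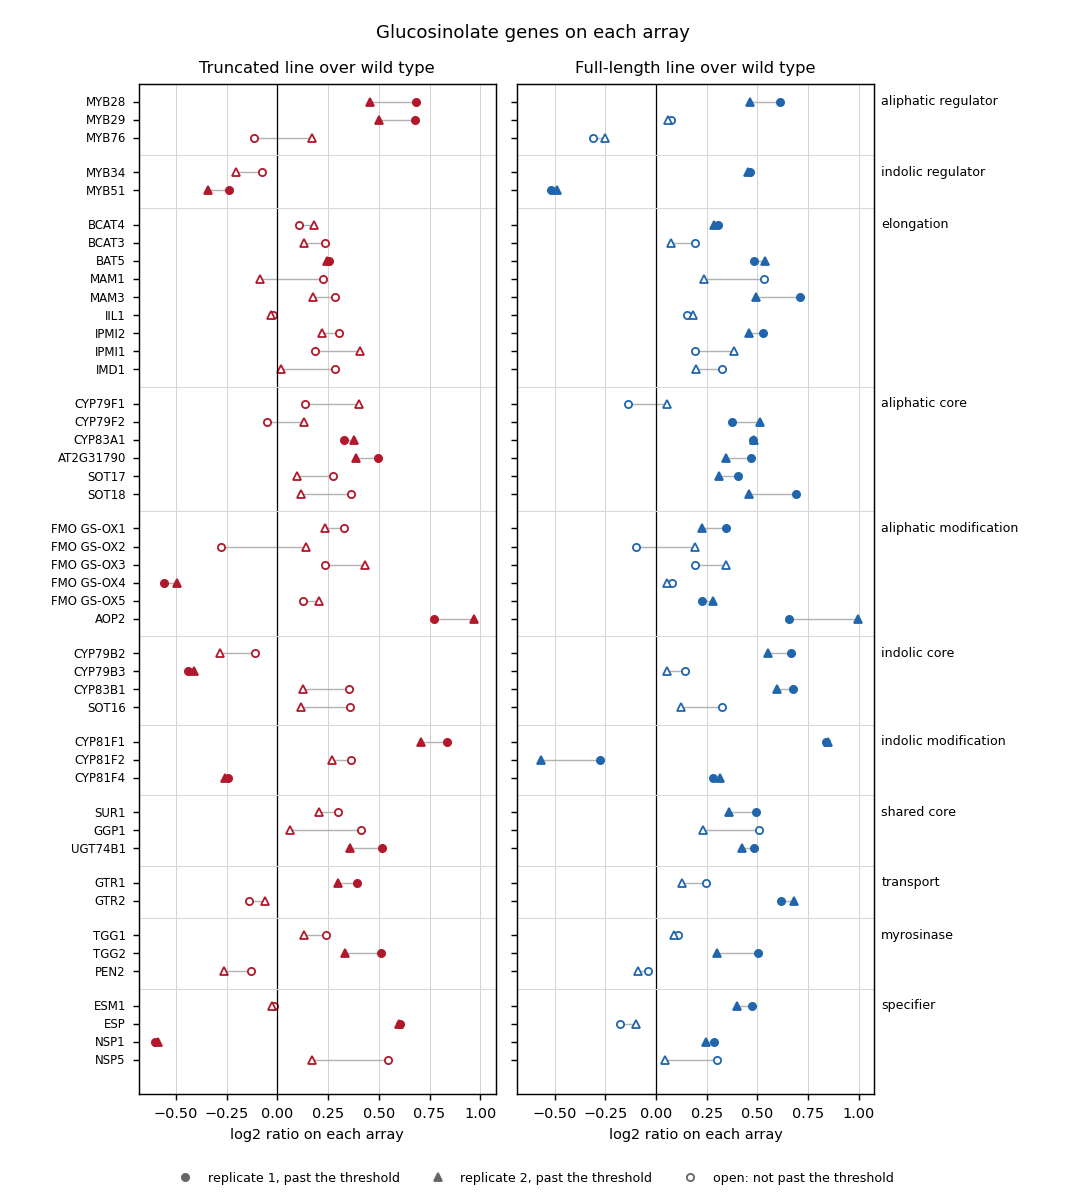
Log2 ratio of line over wild type on each array (x axis) for the 45 tested glucosinolate genes (y axis, grouped by role), truncated line at left and full-length line at right; circles are replicate 1, triangles replicate 2, and filled symbols passed the threshold. Filled symbols lie right of 0 for 11 genes at left and 24 at right, and left of 0 for 5 and 2; after loess normalization, as in the text.

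Of the 3 aliphatic activator genes, 2 were higher in the truncated line and 1 in the full-length line. MYB28 (AT5G61420), the main activator of aliphatic glucosinolate genes, had ratios of 0.68 and 0.45 in the truncated line and 0.61 and 0.46 in the full-length line. All 4 values were positive, and the gene was 1.48-fold higher in the truncated line (0.57 ± 0.16, adjusted p = 0.018) and 1.45-fold higher in the full-length line (0.54 ± 0.11, adjusted p = 0.0172). MYB29 (AT5G07690), which acts beside MYB28 and is known to respond to jasmonate, had ratios of 0.68 and 0.50 in the truncated line and 0.08 and 0.06 in the full-length line. The 2 truncated values lay above both full-length values. MYB29 was 1.51-fold higher in the truncated line (0.59 ± 0.13, adjusted p = 0.0111) and did not pass in the full-length line (0.07 ± 0.01, adjusted p = 0.53), but the difference between the lines missed the threshold (0.52, SE 0.10, adjusted p = 0.0608). Over the other settings tried this difference was 0.43 to 0.67, and it did not pass in most of them. MYB76 (AT5G07700) is the next gene to MYB29 on chromosome 5. Its ratios of -0.12 and 0.17 in the truncated line differed in sign between arrays, and those of -0.31 and -0.25 in the full-length line did not pass (adjusted p = 0.0839). The full-length line was not well above background for MYB76 on either array, where its own signal was 1.22-fold below the wild type mean. The size of this ratio is uncertain, as the other settings tried gave log2 ratios of -1.13 to -0.14.

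Of the indolic activators, 1 was higher in the full-length line, 1 was lower in both lines and 1 could not be tested. MYB34 (AT5G60890) had ratios of -0.08 and -0.20 in the truncated line and 0.46 and 0.45 in the full-length line. Its groups did not overlap: the gene was 1.37-fold higher in the full-length line (0.46 ± 0.0052, adjusted p = 0.0132), did not pass in the truncated line (-0.14 ± 0.09, adjusted p = 0.196), and differed between the lines (-0.60, SE 0.09, adjusted p = 0.0395). MYB51 (AT1G18570), an activator also known from responses to pathogens, had ratios of -0.24 and -0.34 in the truncated line and -0.52 and -0.49 in the full-length line. It was the only tested regulator below wild type on all 4 arrays. MYB51 was 1.22-fold lower in the truncated line (-0.29 ± 0.08, adjusted p = 0.0401) and 1.42-fold lower in the full-length line (-0.50 ± 0.02, adjusted p = 0.0102), and the lines did not differ beyond the threshold (0.21, SE 0.08, adjusted p = 0.252). The MYB122 (AT1G74080) probe was well above background in the line on 2 of 4 arrays and in wild type on 3 of 4, and was left untested.

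Methionine side-chain elongation begins with a transaminase, after which the keto acid enters the chloroplast and is condensed with acetyl-CoA, isomerised and decarboxylated there. Of 9 elongation genes, 1 was higher in the truncated line and 4 in the full-length line, with 0 lower in either by limma (0 and 0 lower at an unadjusted p below 0.05). Rises made up 7.09% of all features for the truncated line and 9.41% for the full-length line. Falls made up 6.15% for the truncated line and 6.14% for the full-length line, so 0 falls among 9 genes says little. The counts were not tested against these shares. BAT5 (AT4G12030), the bile acid transporter-like protein that carries keto acids across the chloroplast envelope, had ratios of 0.25 and 0.24 in the truncated line and 0.48 and 0.54 in the full-length line. It was higher in the truncated line (0.25 ± 0.0049, adjusted p = 0.0486) and in the full-length line (0.51 ± 0.04, adjusted p = 0.00848), and its other 2 probes gave 0.26 and 0.21 in the truncated line and 0.36 and 0.30 in the full-length line. MAM3 (AT5G23020), a methylthioalkylmalate synthase that performs the condensation, had ratios of 0.29 and 0.18 in the truncated line and 0.71 and 0.50 in the full-length line. The full-length values were the higher ones, and MAM3 was 1.52-fold higher there (0.60 ± 0.15, adjusted p = 0.0115), while the truncated line did not pass (0.23 ± 0.08, adjusted p = 0.113). MAM1 (AT5G23010), its neighbour on chromosome 5 and a close homologue, had 0.23 and -0.09 in the truncated line and 0.53 and 0.24 in the full-length line and passed in neither. IPMI2 (AT2G43100), a small subunit of isopropylmalate isomerase, was higher in the full-length line (0.49 ± 0.05, adjusted p = 0.0106), with 0.26 ± 0.06 in the truncated line (adjusted p = 0.0506). BCAT4 (AT3G19710), the transaminase of the entry step, was higher in the full-length line (0.30 ± 0.01, adjusted p = 0.0302), with 0.14 ± 0.05 in the truncated line (adjusted p = 0.164). The other 5 genes, BCAT3 (AT3G49680), MAM1, IIL1 (AT4G13430), IPMI1 (AT3G58990) and IMD1 (AT5G14200), had means of -0.03 to 0.30 in the truncated line and 0.13 to 0.38 in the full-length line.

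The aliphatic core genes were higher in the full-length line for 5 of 6 (against 9.41% of all features) and in the truncated line for 2 of 6 (against 7.09%), with 0 lower by limma (0 in each line at an unadjusted p below 0.05). As falls made up 6.14% of all features for the full-length line and 6.15% for the truncated line, 0 falls among 6 genes says little. CYP83A1 (AT4G13770), which oxidises the aliphatic aldoximes, had ratios of 0.33 and 0.38 in the truncated line and 0.48 and 0.48 in the full-length line. It was 1.28-fold higher in the truncated line (0.35 ± 0.03, adjusted p = 0.0219) and 1.40-fold higher in the full-length line (0.48 ± 0.0019, adjusted p = 0.00951). The 2 CYP79F genes lie next to each other on chromosome 1 and encode close homologues that make aldoximes from lengthened methionine. CYP79F2 (AT1G16400) had ratios of -0.05 and 0.13 in the truncated line and 0.37 and 0.51 in the full-length line, and was higher only in the full-length line by the threshold (0.44 ± 0.10, adjusted p = 0.0217), a difference between lines that did not pass (-0.40, SE 0.11, adjusted p = 0.121). CYP79F1 (AT1G16410) had 0.13 and 0.40 in the truncated line and -0.14 and 0.05 in the full-length line, and passed in neither. SOT18 (AT1G74090), a sulfotransferase of the final core step, was higher in the full-length line (0.58 ± 0.17, adjusted p = 0.0199), with 0.24 ± 0.18 in the truncated line (adjusted p = 0.156). SOT17 (AT1G18590), a sulfotransferase of the same step, was also higher in the full-length line (0.36 ± 0.06, adjusted p = 0.0314). AT2G31790, which the name table gives without a symbol, was higher in the truncated line (0.44 ± 0.08, adjusted p = 0.0192) and in the full-length line (0.41 ± 0.09, adjusted p = 0.02).

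Among the genes that modify aliphatic side chains, AOP2 had the highest mean ratio of all tested members in the truncated line, although CYP81F1 was above it on replicate 1. AOP2 (AT4G03060) encodes a dioxygenase that turns methylsulfinyl into alkenyl glucosinolates, and Col-0 is known to carry a non-functional allele. Its ratios were 0.77 and 0.97 in the truncated line and 0.66 and 1.00 in the full-length line. The gene was 1.83-fold higher in the truncated line (0.87 ± 0.14, adjusted p = 0.0117) and 1.77-fold higher in the full-length line (0.83 ± 0.24, adjusted p = 0.0109), and another AOP2 probe gave means of 0.76 in the truncated line and 0.62 in the full-length line. AOP3 (AT4G03050), a related dioxygenase gene, was not well above background in any of the 8 channels and was not tested. FMO GS-OX4 (AT1G62570), a flavin monooxygenase that oxidises the methylthio group, had ratios of -0.56 and -0.50 in the truncated line and 0.08 and 0.06 in the full-length line. It was the only aliphatic gene below wild type by the threshold in either line (truncated line 1.44-fold lower, -0.53 ± 0.04, adjusted p = 0.00966; full-length line 0.07 ± 0.01, adjusted p = 0.469). FMO GS-OX3 (AT1G62560), the next gene on chromosome 1, had 0.23 and 0.43 in the truncated line and 0.19 and 0.35 in the full-length line without passing. FMO GS-OX1 (AT1G65860) was higher in the full-length line (0.29 ± 0.09, adjusted p = 0.0438), with 0.28 ± 0.07 in the truncated line (adjusted p = 0.0506). FMO GS-OX5 (AT1G12140) was higher in the full-length line (0.25 ± 0.04, adjusted p = 0.0462), but its dimmer probe gave a mean of -0.03 there. FMO GS-OX2 (AT1G62540) had -0.28 and 0.14 in the truncated line and -0.10 and 0.19 in the full-length line and passed in neither.

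Of the 4 indolic core genes, CYP79B2 and CYP79B3 differed between the lines, and CYP83B1 and SOT16 did not pass that test. CYP79B2 and CYP79B3 both turn tryptophan into its aldoxime, which also feeds camalexin and auxin synthesis. CYP79B2 (AT4G39950) had ratios of -0.11 and -0.28 in the truncated line and 0.67 and 0.55 in the full-length line. The lines lay on opposite sides of wild type, and CYP79B2 was 1.53-fold higher in the full-length line (0.61 ± 0.08, adjusted p = 0.00958), did not pass in the truncated line (-0.20 ± 0.12, adjusted p = 0.139) and differed between them (-0.81, SE 0.10, adjusted p = 0.0281). Its other probe gave means of -0.24 in the truncated line and 0.42 in the full-length line. CYP79B3 (AT2G22330) had ratios of -0.44 and -0.41 in the truncated line and 0.14 and 0.06 in the full-length line. It was 1.34-fold lower in the truncated line (-0.43 ± 0.02, adjusted p = 0.0166), did not pass in the full-length line (0.10 ± 0.06, adjusted p = 0.301), and differed between the lines (-0.52, SE 0.08, adjusted p = 0.0453). CYP83B1 (AT4G31500), which oxidises the indolic aldoxime, had 0.35 and 0.12 in the truncated line and 0.68 and 0.60 in the full-length line. It was 1.55-fold higher in the full-length line (0.64 ± 0.06, adjusted p = 0.0105), did not pass in the truncated line (0.24 ± 0.16, adjusted p = 0.107), and the difference did not pass (-0.40, SE 0.11, adjusted p = 0.133). SOT16 (AT1G74100), the sulfotransferase of this branch, had means of 0.24 in the truncated line and 0.22 in the full-length line and passed in neither (difference 0.01, SE 0.12, adjusted p = 0.974).

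The 3 CYP81F members, which hydroxylate the indole ring, each had a pattern of their own. CYP81F1 (AT4G37430) had ratios of 0.83 and 0.71 in the truncated line and 0.84 and 0.85 in the full-length line. It was 1.71-fold higher in the truncated line (0.77 ± 0.09, adjusted p = 0.00504) and 1.80-fold higher in the full-length line (0.85 ± 0.0075, adjusted p = 0.00379), although a dimmer probe gave means of 0.24 in the truncated line and 0.24 in the full-length line. CYP81F4 (AT4G37410), known for the step on the ring nitrogen, lies 1 gene away from CYP81F1 on chromosome 4 and had ratios of -0.25 and -0.26 in the truncated line and 0.28 and 0.32 in the full-length line. It was lower in the truncated line (-0.25 ± 0.0087, adjusted p = 0.046), higher in the full-length line (0.30 ± 0.02, adjusted p = 0.027; -0.027, adjusted p = 0.989, with median centring) and differed between them (-0.55, SE 0.08, adjusted p = 0.0381). Its other 2 probes had the same signs, with means of -0.21 and -0.27 in the truncated line and 0.14 and 0.25 in the full-length line. With the mean of all its probes in place of the brightest, CYP81F4 passed in neither line, and the difference between the lines did not pass. CYP81F2 (AT5G57220), needed for indolic glucosinolates in defence against fungi, had ratios of 0.36 and 0.27 in the truncated line and -0.28 and -0.57 in the full-length line. It was 1.34-fold lower in the full-length line (-0.42 ± 0.21, adjusted p = 0.0351), did not pass in the truncated line (0.32 ± 0.06, adjusted p = 0.0758), and the difference of 0.74 missed the threshold (SE 0.12, adjusted p = 0.0503). Over the other settings tried this difference was 0.59 to 0.92, and it passed in some of them and not in others.

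Set side by side with their regulators, the member genes of the branches had medians close to each other in the full-length line. In the truncated line these medians lay on opposite sides of 0. Without the regulators, the medians of the members had the same sign in both lines. Among the 24 tested aliphatic genes, limma called 6 rises and 1 fall in the truncated line, and 13 rises and 0 falls in the full-length line (1 fall at an unadjusted p below 0.05). Among the 9 tested indolic genes it called 1 rise and 3 falls in the truncated line, and 5 rises and 2 falls in the full-length line. Of all features, 7.09% rose and 6.15% fell in the truncated line, and 9.41% rose and 6.14% fell in the full-length line. The median ratio of aliphatic genes was 0.24 and 0.19 on the arrays of the truncated line and 0.34 and 0.30 on those of the full-length line. The median of indolic genes was -0.08 and -0.20 in the truncated line and 0.32 and 0.32 in the full-length line, where it was -0.027 over both arrays with median centring. Of the 9 indolic genes, 4 were positive and 5 negative on both arrays of the truncated line, and the negative median there rests on the 2 tested regulators, MYB34 and MYB51. Without them the 7 indolic enzymes among the members had medians of 0.35 and 0.11 on the arrays of the truncated line and 0.32 and 0.32 in the full-length line. These medians leave out CYP81F3 and IGMT1 to IGMT5, indolic genes of the wider list below. Those 6 genes had medians of -0.46 and -0.56 in the truncated line and -0.37 and -0.52 in the full-length line, so the shared sign holds for the members only. The 21 tested aliphatic genes that are not regulators had 0.24 and 0.18 in the truncated line and 0.35 and 0.31 in the full-length line. The difference between the lines passed for 1 of 24 aliphatic genes (FMO GS-OX4, lower in the truncated line) and for 4 of 9 indolic genes (MYB34, CYP79B2, CYP79B3 and CYP81F4, all lower in the truncated line), against 2.15% of all features lower and 0.971% higher. These calls did not pass with median centring, with Agilent's ratios, with the deposited value table or without the filter on dim probes. The branches were not tested against each other, since genes are not replicates. With median centring the arrays of a line did not share a sign: the aliphatic median was -0.14 and 0.41 in the truncated line and -0.13 and 0.36 in the full-length line, and the indolic median was -0.26 and 0.03 in the truncated line and -0.33 and 0.37 in the full-length line.

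**Figure D2:**
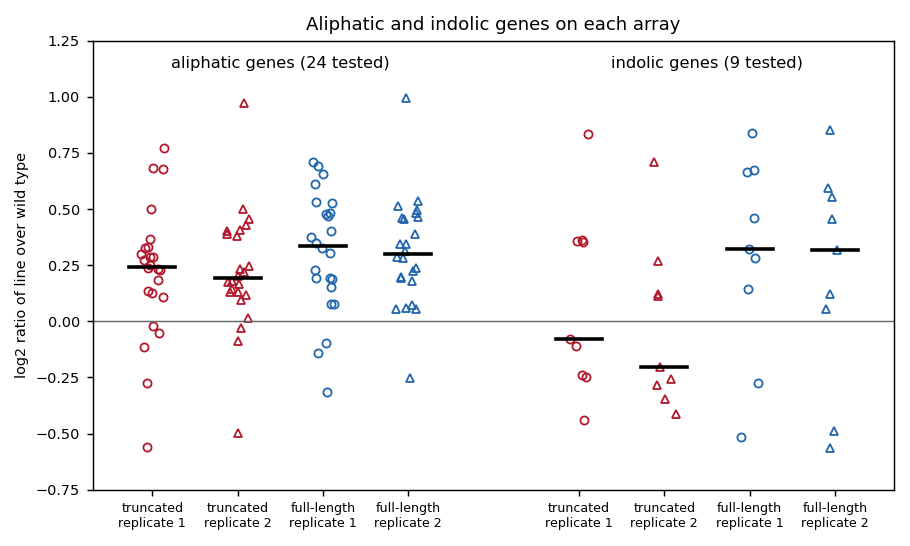
Log2 ratio of line over wild type (y axis) on each of the 4 arrays (x axis) for the 24 tested aliphatic genes at left and the 9 tested indolic genes at right; each symbol is a gene and the black bar is the median. The aliphatic medians lie between 0.19 and 0.34, and the indolic medians at -0.08 and -0.20 in the truncated line and 0.32 and 0.32 in the full-length line (with median centring in place of loess, -0.027 over the arrays of the full-length line).

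Enzymes that serve both branches were higher or did not pass. UGT74B1 (AT1G24100), the glucosyltransferase of the core pathway, had ratios of 0.52 and 0.36 in the truncated line and 0.48 and 0.42 in the full-length line. It was 1.35-fold higher in the truncated line (0.44 ± 0.11, adjusted p = 0.0198) and 1.37-fold higher in the full-length line (0.45 ± 0.04, adjusted p = 0.0158). SUR1 (AT2G20610), the C-S lyase that frees the thiol, was higher in the full-length line (0.43 ± 0.09, adjusted p = 0.0178), with 0.25 ± 0.07 in the truncated line (adjusted p = 0.0675). GGP1 (AT4G30530), which processes the glutathione conjugate, had 0.41 and 0.06 in the truncated line and 0.51 and 0.23 in the full-length line and passed in neither.

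The 2 importers that load glucosinolates into the phloem passed in different lines. GTR2 (AT5G62680) had ratios of -0.14 and -0.06 in the truncated line and 0.62 and 0.68 in the full-length line. The full-length values stood clear of the truncated ones, and GTR2 was 1.57-fold higher in the full-length line (0.65 ± 0.05, adjusted p = 0.00562), did not pass in the truncated line (-0.10 ± 0.06, adjusted p = 0.313) and differed between them (-0.75, SE 0.08, adjusted p = 0.0223). Its other probe gave means of -0.05 in the truncated line and 0.70 in the full-length line. GTR1 (AT3G47960) had 0.39 and 0.30 in the truncated line and 0.24 and 0.13 in the full-length line. It was higher in the truncated line (0.35 ± 0.07, adjusted p = 0.0319), did not pass in the full-length line (0.19 ± 0.08, adjusted p = 0.115), and the lines did not differ beyond the threshold (0.16, SE 0.09, adjusted p = 0.404).

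Of the myrosinases, TGG2 alone passed. TGG1 and TGG2 are the classical myrosinases of leaves. TGG2 (AT5G25980) had ratios of 0.51 and 0.33 in the truncated line and 0.51 and 0.30 in the full-length line, and was higher in the truncated line (0.42 ± 0.13, adjusted p = 0.0344) and in the full-length line (0.40 ± 0.14, adjusted p = 0.0327). TGG1 (AT5G26000), with 2 genes between it and TGG2 on chromosome 5, had 0.24 and 0.13 in the truncated line (adjusted p = 0.11) and 0.11 and 0.09 in the full-length line (adjusted p = 0.307). PEN2 (AT2G44490), an atypical myrosinase that acts on indolic glucosinolates in defence, had -0.13 and -0.26 in the truncated line (adjusted p = 0.108) and -0.04 and -0.09 in the full-length line (adjusted p = 0.533).

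The specifier genes NSP1 and ESP differed between the lines in opposite directions. ESP (AT1G54040), the epithiospecifier protein that favours epithionitriles and nitriles, had ratios of 0.60 and 0.60 in the truncated line and -0.18 and -0.10 in the full-length line. On the intensity scale it read 1415 and 1452 in the truncated line against 932 and 958 in wild type on the same arrays, and 819 and 905 in the full-length line against 926 and 968 in wild type. ESP was 1.52-fold higher in the truncated line (0.60 ± 0.0022, adjusted p = 0.00754), did not pass in the full-length line (-0.14 ± 0.06, adjusted p = 0.169) and differed between the lines (0.74, SE 0.08, adjusted p = 0.0221). Its other 2 probes gave smaller ratios, with means of 0.46 and 0.17 in the truncated line and -0.12 and 0.01 in the full-length line.

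NSP1 (AT3G16400), the nitrile specifier protein that forms simple nitriles, ran the other way. Its ratios were -0.61 and -0.59 in the truncated line and 0.29 and 0.25 in the full-length line. The intensities were 6757 and 6927 in the truncated line against 10279 and 10440.1 in wild type, and 12469 and 11651 in the full-length line against 10217 and 9806 in wild type. NSP1 was 1.51-fold lower in the truncated line (-0.60 ± 0.0095, adjusted p = 0.00695), higher in the full-length line (0.27 ± 0.03, adjusted p = 0.0358; -0.024, adjusted p = 0.989, with median centring) and differed between the lines (-0.87, SE 0.08, adjusted p = 0.0138). All 4 NSP1 probes were negative on both arrays of the truncated line. In the full-length line the other 3 had means of 0.74, 0.15 and -0.07, so the probes disagreed there. ESM1 (AT3G14210), the epithiospecifier modifier that favours isothiocyanates, had -0.02 and -0.03 in the truncated line and 0.47 and 0.40 in the full-length line. It was 1.36-fold higher in the full-length line (0.44 ± 0.05, adjusted p = 0.0124), did not pass in the truncated line (-0.02 ± 0.0072, adjusted p = 0.826), and the difference missed the threshold (-0.46, SE 0.08, adjusted p = 0.0562). NSP5 (AT5G48180) passed in neither line (0.36 ± 0.27 in the truncated line and 0.17 ± 0.18 in the full-length line), and its probes disagreed in sign in the full-length line.

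**Figure D3:**
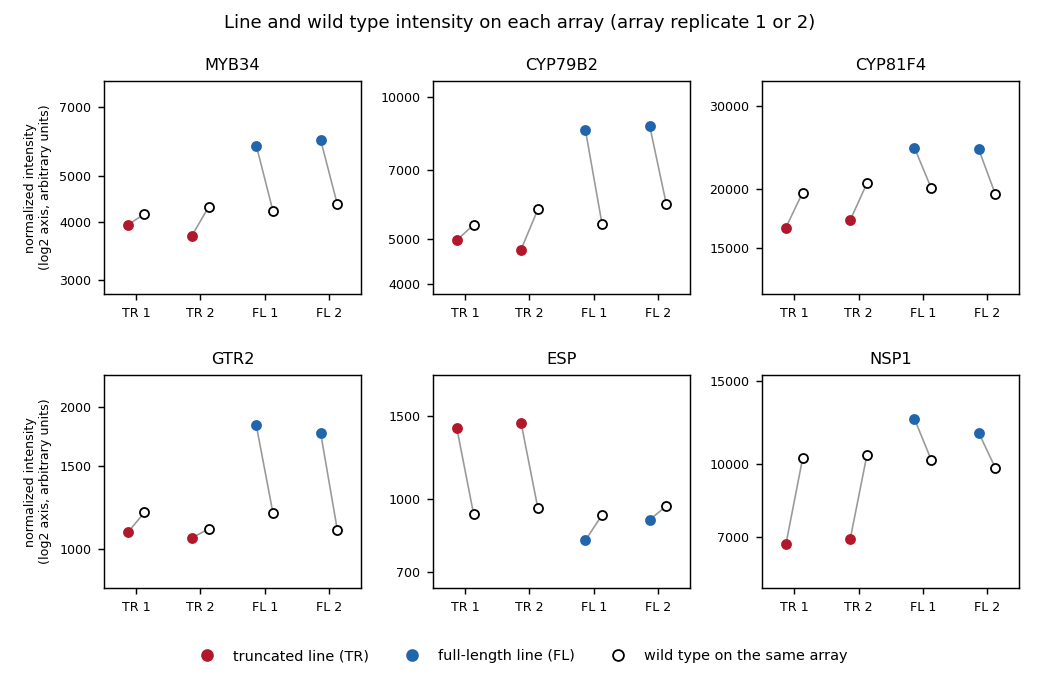
Normalized intensity (y axis, log2-spaced, arbitrary units, a range of its own for each gene) of the line (filled) and of wild type on the same array (open) for 6 genes on the 4 arrays (x axis; TR, truncated line, then FL, full-length line, replicates 1 and 2). ESP read 1415 and 1452 in the truncated line against 932 and 958 in wild type on the same arrays, and NSP1 read 6757 and 6927 against 10279 and 10440.1.

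The direct comparison of the lines called 1 of 45 members higher in the truncated line than in the full-length line (2.22%, against 0.971% of all features) and 7 lower (15.6%, against 2.15%), while 3.12% of all features passed in either direction. ESP was the higher one. NSP1, CYP79B2, GTR2, MYB34, FMO GS-OX4, CYP81F4 and CYP79B3 were lower. Differences taken within a replicate number, where both arrays had the same dye orientation, lay close together: -0.89 and -0.84 for NSP1, -0.78 and -0.84 for CYP79B2, -0.76 and -0.75 for GTR2, and 0.78 and 0.70 for ESP. For MYB34 they were -0.54 and -0.66, for FMO GS-OX4 -0.64 and -0.55, for CYP81F4 -0.53 and -0.58, and for CYP79B3 -0.58 and -0.47. All 8 kept their sign with median centring, at -0.68 for NSP1, -0.64 for CYP79B2, -0.62 for GTR2, 0.83 for ESP, -0.44 for MYB34, -0.48 for FMO GS-OX4, -0.36 for CYP81F4 and -0.37 for CYP79B3. The calls themselves depended on the processing: limma called 0 members different between the lines with median centring, with Agilent's processed ratios, with the deposited value table or without the filter on dim probes (2, 18, 18 and 15 at an unadjusted p below 0.05), and without full-length replicate 1 only 3 were called lower. ESP, NSP1, CYP79B2 and GTR2 stayed called when any 1 array was left out.

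**Figure D4:**
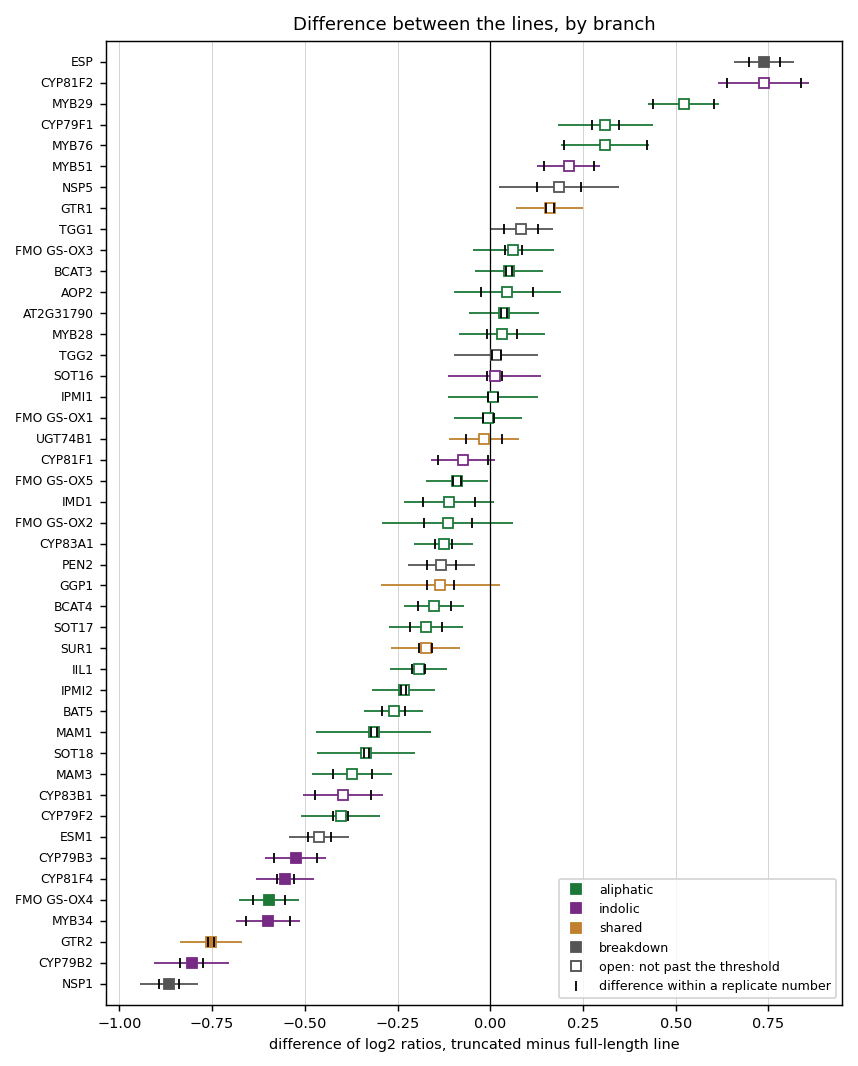
Difference of log2 ratios, truncated minus full-length line (x axis), for the 45 tested genes (y axis, ordered by value); squares with bars are the fitted difference and its SE, colour gives the branch, filled squares passed the threshold and black ticks are the differences within replicate 1 and replicate 2. ESP at 0.74 is filled at the high end, and 7 genes from -0.52 (CYP79B3) to -0.87 (NSP1) at the low end, after loess normalization.

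Other genes of the pathway were read from a list of 44, of which 43 were tested. In the truncated line 2 rose (4.65%, against 7.09% of all features) and 6 fell (14%, against 6.15%), and in the full-length line 6 rose (14%, against 9.41%) and 6 fell (14%, against 6.14%). The median ratio of the 43 was -0.03 in the truncated line and 0.02 in the full-length line, while that of the 45 members was 0.24 in the truncated line and 0.30 in the full-length line. The falls included methyltransferase genes of the indolic branch. IGMT1 and IGMT2 methylate indolic glucosinolates after hydroxylation by CYP81F enzymes. IGMT1 (AT1G21100) had ratios of -0.64 and -0.63 in the truncated line (adjusted p = 0.00605) and -1.02 and -1.0 in the full-length line (adjusted p = 0.00286). IGMT2 (AT1G21120) had -0.59 and -0.48 in the truncated line (adjusted p = 0.015) and -0.81 and -0.65 in the full-length line (adjusted p = 0.00622). Of CYP81F3 and IGMT1 to IGMT5 together, 5 were lower in the truncated line (83.3%, against 6.15% of all features). In the full-length line 3 were lower (50%, against 6.14%). By limma 0 were higher (0 in each line at an unadjusted p below 0.05), against 7.09% of all features in the truncated line and 9.41% in the full-length line. IGMT5 (AT1G76790), which methylates the ring nitrogen position prepared by CYP81F4, had -0.75 and -0.70 in the truncated line (adjusted p = 0.00536) and 0.02 and 0.11 in the full-length line (adjusted p = 0.505), and differed between the lines (-0.79, SE 0.08, adjusted p = 0.0205). CYP81F4 and IGMT5 were thus both lower in the truncated line. IGMT1 to IGMT4 are close homologues, as are CYP79F1 with CYP79F2, MAM1 with MAM3 and the neighbouring FMO genes, and whether their probes share signal was not tested.

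Of the 12 tested breakdown genes on that list, 3 passed the test of the difference between the lines (25%, against 3.12% of all features): MBP2 was higher in the truncated line, and NSP2 and BGLU30 were lower. As the list was chosen with earlier results of these data known, this share is a description only. NSP2 (AT2G33070), another nitrile specifier gene, had -0.62 and -0.64 in the truncated line (adjusted p = 0.00605) and 0.04 and 0.04 in the full-length line (adjusted p = 0.689). MBP2 (AT1G52030), a myrosinase-binding protein gene, had 0.51 and 0.58 in the truncated line (adjusted p = 0.009) and -0.63 and -0.65 in the full-length line (adjusted p = 0.00545). BGLU18 (AT1G52400), a beta-glucosidase gene known for releasing abscisic acid from its glucose ester, had 0.49 and 0.49 in the truncated line (adjusted p = 0.0113) and 0.12 and 0.18 in the full-length line (adjusted p = 0.133), a difference that did not pass (adjusted p = 0.102). BGLU30 (AT3G60140), a beta-glucosidase gene induced by darkness, had 0.08 and 0.50 in the truncated line (adjusted p = 0.157) and 1.29 and 1.46 in the full-length line (2.60-fold higher, adjusted p = 0.0047). BGLU30 was dim, at 117 to 132 in wild type, though well above background in every channel. Only the brighter of its 2 probes was read, so the size of its rise is uncertain. In the truncated line NSP2 was lower, as NSP1 was, and MBP2 was higher, as ESP was, and BGLU30 had the largest rise on the list in the full-length line. AT2G25450, without a symbol in the name table, had -0.29 and -0.14 in the truncated line (adjusted p = 0.133) and 0.51 and 0.71 in the full-length line (adjusted p = 0.0117), and AT1G04770 had -0.22 and -0.42 in the truncated line (adjusted p = 0.0542) and -0.68 and -0.81 in the full-length line (adjusted p = 0.00708).

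**Figure D5:**
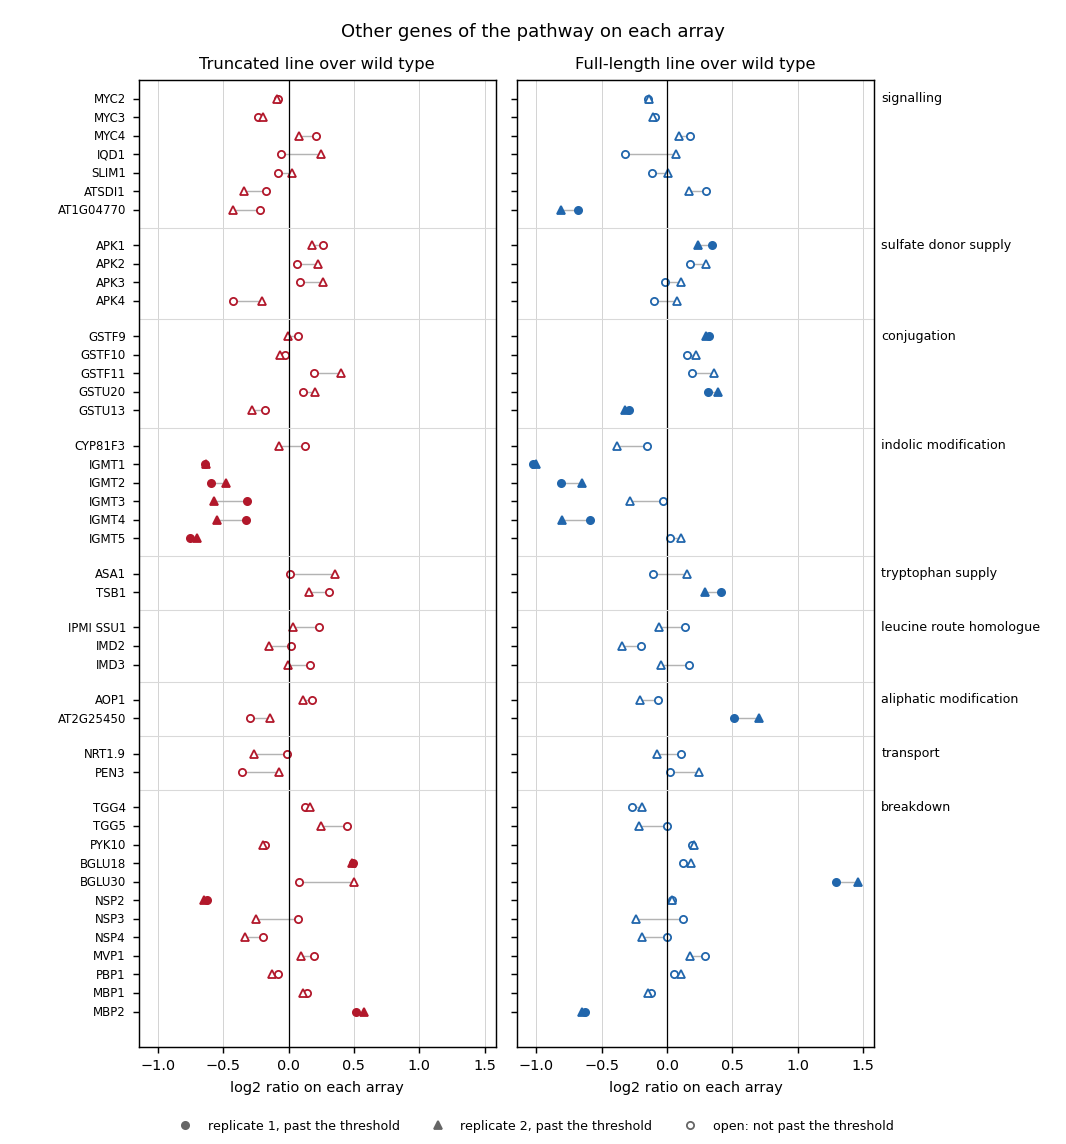
Log2 ratio of line over wild type on each array (x axis) for the 43 tested genes of the wider pathway list (y axis, grouped by function), truncated line at left and full-length line at right; circles are replicate 1, triangles replicate 2, and filled symbols passed the threshold. IGMT1 and IGMT2 lie left of 0 in both panels, MBP2 lies right of 0 at left and left of 0 at right, and BGLU30 reaches 1.29 and 1.46 at right.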

How the data were processed

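Per the file headers, the authors read the scans with Agilent Feature Extraction, version 10.7.3.1. The deposited scanner files give median intensity and median local background intensity of each spot in both channels, with flags, and a processed log10 ratio of Cy5 over Cy3. The values of the deposited table are log2 ratios, line over wild type, as their match to that log10 ratio shows (slopes 0.998 to 1.00; column medians 0.01, -0.06, 0.04 and -0.07), so its scale, centring and direction are known.

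Outlier-marked spots (20 to 50 gene spots per array) were left out, background was corrected with normexp (offset 50), ratios were normalized by loess with control spots at weight 0, turned to line over wild type and averaged per probe, and the brightest probe of a locus was used (16 of the 47 loci have several). No mean signals are in the files, so medians were used. A feature was tested if well above background in the line on both arrays of a line, or in wild type on all 4 arrays; 22441 were, after 86 probes with a missing value were dropped. Both lines were fitted together with limma 3.58.1 in R 4.3.3 (2 residual and 3.18 prior degrees of freedom), and the fit was tested on simulated data. P-values rest on the spread between 2 arrays per line, dye effects included, pooled over both lines and moderated by limma across all tested features. The number of arrays limits the precision. Intensities of single channels follow loess and quantile scaling of average intensity.

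Members, lists and the order of outlier removal were chosen with earlier results of these data known. All regulators, myrosinases and transporters are named, and of the other roles up to 4 called genes whose arrays share a sign, by size; of the wider list, up to 3 rises and 3 falls per line. Further genes named beside them, such as MAM1, CYP79F1, SOT17, AOP3 and FMO GS-OX3, were added after their values were seen. Names come from a TAIR10.1 gene table, used for symbols and gene order only. Sequences and promoter motifs were not analysed here. The alternatives were a replicate block, median centring, Agilent's ratios, the value table, 2 treatments of outlier spots, 2 filters, the mean of a gene's probes, and leaving out each array.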

Additional observations from a re-analysis of the deposited data

Results flagged for a closer look

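The lines differed past the threshold, by limma's contrast of truncated minus full-length line with Benjamini-Hochberg adjustment, for 13 genes named above. Among the members the difference in log2 ratio was 0.74 for ESP, -0.87 for NSP1, -0.81 for CYP79B2, -0.75 for GTR2, -0.60 for MYB34, -0.60 for FMO GS-OX4, -0.55 for CYP81F4 and -0.52 for CYP79B3. On the wider list it was 1.18 for MBP2 (1.14 and 1.23 within replicates 1 and 2), -1.09 for BGLU30 (-1.21 and -0.96), -0.82 for AT2G25450 (-0.80 and -0.85), -0.79 for IGMT5 (-0.77 and -0.81) and -0.67 for NSP2 (-0.66 and -0.68). With 2 arrays per line, no array could be set apart from the others of its group.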

How the results depend on the processing

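Of 67 calls on named genes over the 3 comparisons, the number kept was 67 with the replicate block, 67 when all channels had to be well above background, 62 with the mean of all probes, 45 with Agilent's processed ratios, 45 with the deposited value table, 44 with outlier-marked spots kept, 44 with these spots left out after background correction, 30 without the filter on dim probes and 0 with median centring. Under median centring limma called 0 members higher or lower in either line or between them (7, 6 and 2 at an unadjusted p below 0.05 in the truncated line, the full-length line and the difference), CYP81F4 and NSP1 turned to -0.027 and -0.024 in the full-length line (adjusted p = 0.989 for both), and the median of aliphatic genes was 0.14 in the truncated and 0.10 in the full-length line and that of indolic genes -0.027 in the full-length line. The cause was not tested; the ratios of the 45 members moved by a median of -0.08 in the truncated and -0.22 in the full-length line. With outlier-marked spots kept, with them left out later and without the filter, 3, 3 and 2 members fell in the truncated line, and 13, 13 and 11 rose and 0, 0 and 1 fell in the full-length line; 4 rose in the truncated line without the filter. Between the lines 3 were lower with outlier-marked spots kept and 3 with them left out later, 0 were higher or lower without the filter, with Agilent's ratios or with the value table (15, 18 and 18 at an unadjusted p below 0.05), and 2 were higher when all channels had to be above background and 2 with the mean of probes. The indolic median in the full-length line was 0.29 with Agilent's ratios, 0.29 with the value table, 0.26 without the filter and 0.23 with the mean of probes, and the aliphatic median there was 0.26 in both treatments of outlier spots.

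With the replicate block in the fit, 30 members rose and 9 fell in the truncated line, 4 were lower in the full-length line, and 8 were higher and 18 lower between the lines. Of all 22441 features, 12172 passed with the block in the truncated line, 12751 in the full-length line and 8782 between the lines. The fit without it called 2972, 3488 and 701. The counts with the block therefore say little about glucosinolate genes in particular. Of the 62 values on named genes that did not pass without the block, 41 passed with it, among them the differences between the lines of CYP81F2 (adjusted p = 0.000398), MYB29 (0.00109) and ESM1 (0.000967). The labels do not say that a number marks shared plants; over all features the deviations of same-numbered arrays correlated at 0.775, and those arrays share the dye orientation. The slide could not be taken as a block, since all arrays are on 1 slide.

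Leaving out each array in turn gave 5 to 15 members higher and 2 to 4 lower in the truncated line, 13 to 27 higher and 1 to 3 lower in the full-length line, and 1 to 3 higher and 3 to 4 lower between the lines. The line left with 1 array is then assumed to vary like the other. The aliphatic median was 0.19 to 0.24 in the truncated and 0.29 to 0.34 in the full-length line, and the indolic median -0.20 to -0.08 in the truncated and 0.30 to 0.32 in the full-length line.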

Other observations

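Of the 11 listed genes that supply the sulfate donor, conjugated sulfur and tryptophan, limma called 0 in the truncated line (4 higher and 2 lower at an unadjusted p below 0.05) and 5 in the full-length line (45.5%, against 15.5% of all features), 4 higher and 1 lower. APK1, an adenosine phosphosulfate kinase gene that makes the sulfate donor, had ratios of 0.26 and 0.18 in the truncated line (adjusted p = 0.0822) and 0.35 and 0.24 in the full-length line (adjusted p = 0.0389), and APK2, APK3 and APK4 passed in neither line. The glutathione transferase genes GSTF9 (0.31 ± 0.02, adjusted p = 0.0273) and GSTU20 (0.35 ± 0.06, adjusted p = 0.023) were higher and GSTU13 (-0.31 ± 0.02, adjusted p = 0.0303) lower in the full-length line, and 0 of 5 on the list passed in the truncated line by limma. TSB1, a tryptophan synthase gene, was higher in the full-length line (0.35 ± 0.09, adjusted p = 0.0329), with 0.23 in the truncated line (adjusted p = 0.0948). MYC2, MYC3 and MYC4, bHLH factors of jasmonate signalling that act with the MYB activators, passed in neither line. These genes were chosen after their values were seen.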
